A study of Mus musculus with 6 samples.

Results

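The genes that make, break down and bind retinoic acid were examined in retinal progenitor cells (RPCs) that had lost the transcription factor gene Pax6. They were chosen by name: every probe set annotated to 1 of 10 listed genes was taken, whatever it measured. This gave 12 of the 45037 probe sets tested, for 9 of the 10 genes. Cyp26c1 had no annotated probe set and was not analysed here. The Pax6 mutant group was made of 3 pools of Pax6 flox alpha-cre cells and the control group of 3 pools of alpha-cre cells, all from ICR embryos at E12 and each of 1800000 cells. Both groups carried the alpha-Cre transgene, in which a Pax6 promoter and the peripheral retina enhancer drive Cre and GFP, and both were sorted for GFP from dissociated eyes. Each pool was hybridised to 1 array. In the mutant the floxed segment, which holds the start codon and the paired domain exons, can be deleted only where Cre is active.

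Retinoic acid is made from vitamin A in 2 steps. Retinol is first oxidised to retinal, a step in which RDH10 is the main embryonic enzyme, and retinal is then oxidised irreversibly to retinoic acid by the ALDH1A enzymes. CYP26 enzymes hydroxylate retinoic acid for removal. CRABP proteins carry it inside the cell, and the receptors of the RAR and RXR families bind DNA as pairs and change transcription when it is bound. In the embryonic mouse retina Aldh1a1 is expressed dorsally and Aldh1a3 ventrally, with a band of Cyp26a1 and Cyp26c1 between them. Cyp26a1 and Rarb are themselves classic genes that retinoic acid induces through direct repeats of receptor half-sites in their promoters.

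Those direct repeats could be seen in the promoter sequences of both genes. The windows run from 250 bases before to 50 bases after an annotated transcript start and were taken from RefSeq, build GRCm38.p6. Windows were given for 7 of the 10 genes. The 2 shown here are those in which a DR5 element was found, which is a pair of half-sites (AGGTCA or AGTTCA or GGGTCA or GGTTCA, on either strand) 5 bases apart. The capitals mark that element.
Cyp26a1, chr19:37697558-37697857, plus strand: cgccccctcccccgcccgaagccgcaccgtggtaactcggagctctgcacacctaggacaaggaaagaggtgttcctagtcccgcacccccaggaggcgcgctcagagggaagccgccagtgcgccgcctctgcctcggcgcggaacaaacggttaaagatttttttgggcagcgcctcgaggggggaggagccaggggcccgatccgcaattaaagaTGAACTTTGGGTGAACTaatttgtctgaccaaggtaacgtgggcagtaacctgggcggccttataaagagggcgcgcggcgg
Rarb, chr14:16575427-16575726, minus strand: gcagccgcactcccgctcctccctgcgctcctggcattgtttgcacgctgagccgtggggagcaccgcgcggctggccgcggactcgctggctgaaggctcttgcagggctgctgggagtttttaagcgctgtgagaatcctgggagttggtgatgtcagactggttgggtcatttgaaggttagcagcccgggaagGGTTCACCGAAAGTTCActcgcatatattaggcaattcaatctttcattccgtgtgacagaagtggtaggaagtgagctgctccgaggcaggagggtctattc

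Read in the orientation of the repeat, with the half-sites in capitals and the spacer in lower case, the elements of the pair were alike.
Cyp26a1 element: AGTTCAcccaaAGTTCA
Rarb element: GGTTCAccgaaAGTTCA
They shared 15 of 17 bases. The Cyp26a1 element lay 32 to 16 bases before the start, on the strand opposite to the gene, and the Rarb element 53 to 37 bases before it, on the strand of the gene. A DR5 match was present in 0.115% of the 27025 genes with a window. The same half-sites 2 bases apart (DR2) or 1 base apart (DR1) matched no window of a member, against 0.311% and 0.263% of all genes. These matches are descriptions of the letters and not measured sites.

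On the arrays, the members changed in both directions. Cyp26a1, the degrading enzyme, was lower in mutant RPCs, and the binding protein gene Crabp1 and the receptor gene Rarb were higher. For a call, limma's moderated test had to give p under 0.05, with an adjusted p (Benjamini-Hochberg, over all probe sets) under 0.10 and a difference of 1.5-fold or more. By this rule 2 of 12 member probe sets were higher and 1 was lower, while 9 were not called. Of all probe sets, 1.67% were called higher and 0.984% lower. In sorted pools, fewer cells of a type and less RNA per cell cannot be told apart. The median log2 fold change was 0.21 over the member probe sets and -0.02 over all probe sets.

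**Figure D1:**
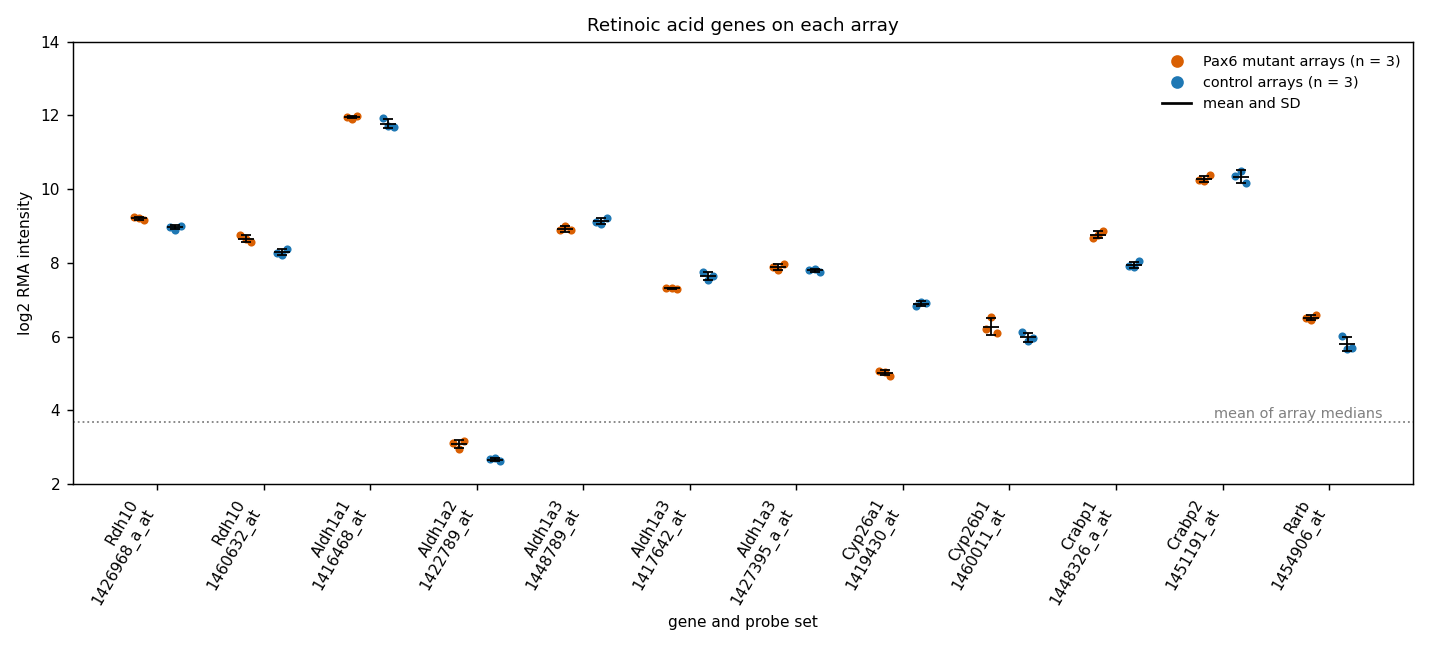
Log2 RMA intensity (y axis) of each retinoic acid probe set (x axis) on each array, with Pax6 mutant arrays in orange on the left of each pair and control arrays in blue on the right. Each black bar is a group mean with its SD (n = 3), and the Cyp26a1 points of the mutant lie at 4.94 to 5.07, against 6.82 to 6.94 in control.

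Of the synthesis genes, none passed the fold change of 1.5 in mutant RPCs, but both probe sets of Rdh10 differed by less. Rdh10 has 2 probe sets. The brighter one, 1426968_a_at, was at a log2 intensity of 9.24, 9.21 and 9.17 on the mutant arrays, against 8.98, 8.90 and 9.01 on the control arrays. The other, 1460632_at, was at 8.76, 8.64 and 8.58 in mutant and 8.27, 8.21 and 8.38 in control RPCs. The mutant arrays were all higher than the control arrays on both. Their log2 fold changes were 0.24 (standard error 0.06, limma adjusted p = 0.073) and 0.37 (standard error 0.08, adjusted p = 0.0408), which are 1.18-fold and 1.29-fold.

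Aldh1a1, the dorsal retinal dehydrogenase, lay above the array median on every array, with 11.96, 11.91 and 11.98 in mutant RPCs and 11.93, 11.71 and 11.70 in control RPCs on the log2 scale. Control replicate 1 lay inside the range of the mutant arrays, so the groups overlapped. The log2 fold change was 0.17, with a 95% confidence interval of -0.02 to 0.36 and a limma adjusted p of 0.28. A change of 1.5-fold, 0.585 on the log2 scale, lies outside this interval.

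Aldh1a2, a dehydrogenase of embryonic mesenchyme, was the member that lay below the array median on every array. Its log2 intensities were 3.11, 2.96 and 3.17 in mutant RPCs and 2.68, 2.72 and 2.62 in control RPCs. These do not overlap, and the log2 fold change was 0.41 (standard error 0.07, limma adjusted p = 0.0265), below the fold change of 1.5. With 16 added to each value before log2, which shrinks differences between dim values, the log2 fold change was 0.13.

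Aldh1a3, the ventral dehydrogenase, has 3 probe sets that did not give 1 answer. The brightest, 1448789_at, was at 8.88, 9.00 and 8.88 in mutant RPCs and 9.11, 9.07 and 9.22 in control RPCs, a log2 fold change of -0.21 (95% confidence interval -0.38 to -0.04, limma adjusted p = 0.149). The second, 1417642_at, was at 7.33, 7.31 and 7.29 in mutant and 7.75, 7.53 and 7.63 in control RPCs. Its log2 fold change was -0.33 (95% confidence interval -0.50 to -0.16, limma adjusted p = 0.0488). On both of these, all mutant arrays were below all control arrays. The third, 1427395_a_at, overlapped, with 7.88, 7.82 and 7.97 in mutant and 7.82, 7.83 and 7.76 in control RPCs and a log2 fold change of 0.09 (95% confidence interval -0.07 to 0.24, limma adjusted p = 0.501). The intervals of 1417642_at and 1427395_a_at do not overlap. Which transcripts or exons each of the 3 reads was not analysed here. As the 3 differ in sign, no direction is given for the gene.

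The largest fold change among the members was in degradation. Cyp26a1 had linear intensities of 33.6, 33.1 and 30.7 on the mutant arrays and 113, 123 and 122 on the control arrays. On the log2 scale these are 5.07, 5.05 and 4.94 in mutant RPCs, against 6.82, 6.94 and 6.93 in control RPCs. The groups lay far apart and the arrays of each group close together, with an SD of 0.07 in the mutant and 0.06 in control (n = 3 each). The transcript was 3.67-fold lower in mutant RPCs (log2 fold change -1.88, 95% confidence interval -2.04 to -1.72, limma adjusted p = 0.00039). Only 8 of the 45037 probe sets had a more negative log2 fold change.

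Cyp26b1, which encodes a second retinoic acid hydroxylase, was not called. Its values were 6.20, 6.53 and 6.10 in mutant RPCs and 6.12, 5.89 and 5.96 in control RPCs on the log2 scale. The groups overlapped, since mutant replicate 3 lay below control replicate 1. The log2 fold change was 0.29 (95% confidence interval -0.0005 to 0.58, limma adjusted p = 0.24), an interval that lies wholly above that of Cyp26a1. Mutant replicate 2 was the highest of the 6 arrays, and without it the log2 fold change was 0.16.

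**Figure D2:**
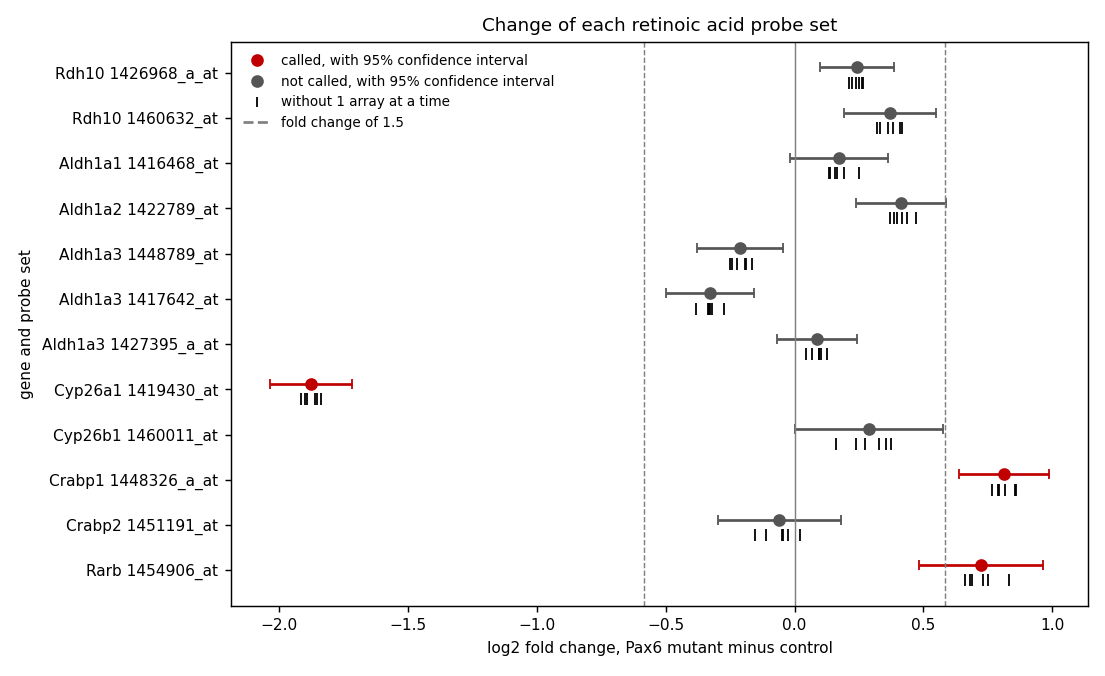
Log2 fold change (x axis, Pax6 mutant minus control) of each retinoic acid probe set (y axis), with its 95% confidence interval, in red where called and grey where not. Black ticks give the value without 1 array at a time, and dashed lines a fold change of 1.5. Cyp26a1 stands alone at -1.88, and Crabp1 (0.81) and Rarb (0.72) are the called rises.

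Of the intracellular carriers, Crabp1 rose and Crabp2 did not pass. Crabp1 encodes a cytosolic protein that binds retinoic acid. Its probe set was at 8.68, 8.76 and 8.86 in mutant RPCs, against 7.91, 7.90 and 8.04 in control RPCs, on the log2 scale. All mutant arrays were above all control arrays by a wide margin, and the difference was 1.76-fold, a log2 fold change of 0.81 (95% confidence interval 0.64 to 0.99, limma adjusted p = 0.00409). Crabp2 encodes the carrier that hands retinoic acid to its receptors. It was at 10.25, 10.21 and 10.38 in mutant and 10.36, 10.51 and 10.16 in control RPCs, with a log2 fold change of -0.06 (95% confidence interval -0.30 to 0.18, limma adjusted p = 0.782). The mutant arrays of Crabp2 lay inside the range of the control arrays, and the confidence intervals of the 2 carriers do not overlap.

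Rarb, which encodes the retinoic acid receptor beta, was at 6.50, 6.46 and 6.58 in mutant RPCs and 6.01, 5.66 and 5.70 in control RPCs on the log2 scale. The groups did not overlap, although control replicate 1 was nearer to the mutant arrays than the other controls. The level was 1.65-fold higher in the mutant (log2 fold change 0.72, 95% confidence interval 0.48 to 0.97, limma adjusted p = 0.0133). Its call was lost with unmoderated variances (adjusted p = 0.101 in that limma fit), and over all alternatives that gave a value its log2 fold change lay between 0.59 and 0.83. The pair of members with a DR5 element in the printed windows moved in opposite directions, Cyp26a1 down and Rarb up. Of the 29 other genes with a DR5 match, 9 were measured. None of these was called by limma or by a SAM-type statistic, which compares each difference with permuted labels, and 2 had an unadjusted p under 0.05. Of the 14357 measured genes whose windows held no DR5 match, 2.98% were called and 24.2% had such a p.

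Below the fold change of 1.5, more of the members differed between the groups. With p and adjusted p alone, 5 member probe sets were higher and 2 lower, against 5.04% and 4.55% of all probe sets. Those that this added were Aldh1a2, Aldh1a3 1417642_at and both probe sets of Rdh10. None of them kept an adjusted p under 0.10 without the moderation of the variance. In that limma fit the adjusted p was 0.103 for Aldh1a2 and 0.13 for Aldh1a3 1417642_at. For Rdh10 it was 0.103 (1426968_a_at) and 0.128 (1460632_at). By array ranges, 5 member probe sets had every mutant array above every control array and 3 had every mutant array below, and 4 overlapped. Of all probe sets 13.2% lay wholly above and 15.1% wholly below. Of the 9 probe sets that were not called, 8 had a 95% confidence interval that lay inside a 1.5-fold change either way, the exception being that of Aldh1a2. Cyp26a1, Crabp1 and Rarb were called in all 6 fits that left out 1 array.

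The wider retinoid pathway was described by a list of 51 further genes for uptake, conversion, storage, receptors and response, of which 44 were measured, each by its brightest probe set. Of these 44, 4 were called higher in mutant RPCs and none lower, against 2.28% and 0.918% of 18194 genes. At an unadjusted p under 0.05 from limma, 11 were higher and 2 lower, where 12.8% of all genes were higher and 11.6% lower. The SAM-type statistic also called none lower. The list had a median log2 fold change of 0.06, against -0.01 over all genes.

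**Figure D3:**
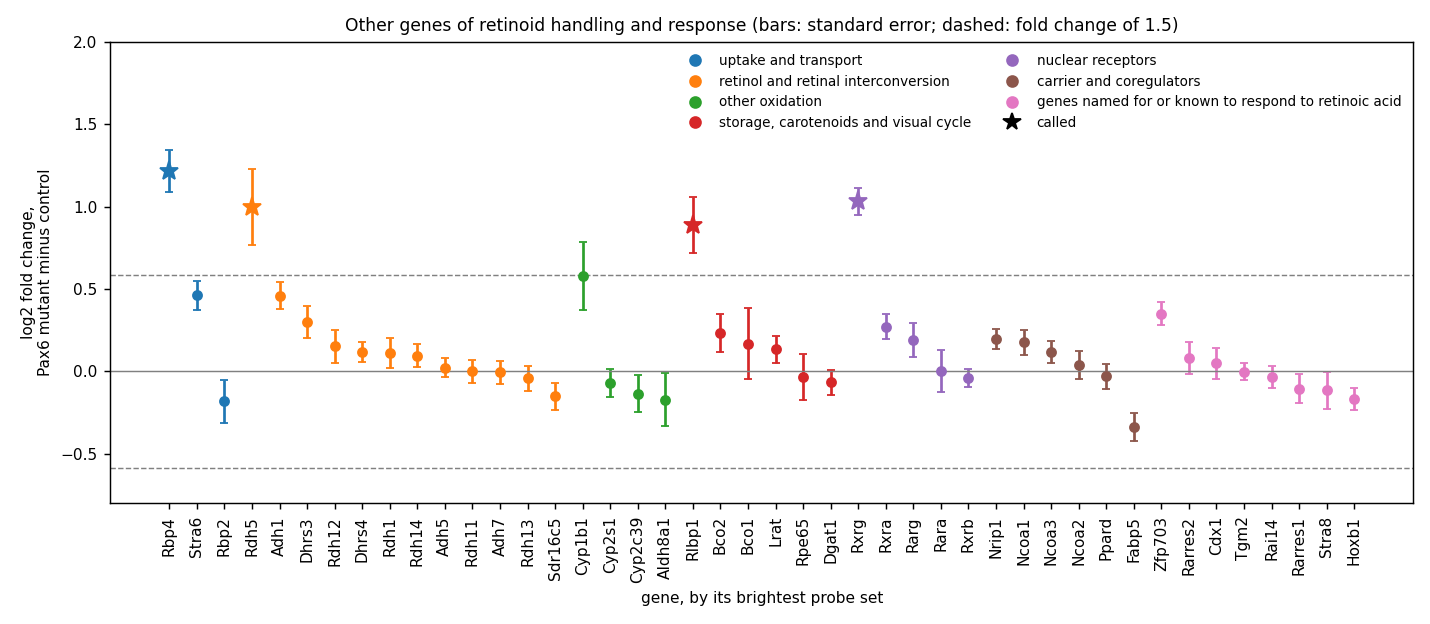
Log2 fold change (y axis, Pax6 mutant minus control) of 44 further retinoid genes (x axis), coloured by role, with standard errors. Stars mark the called genes Rbp4 (1.22), Rdh5 (1.00), Rlbp1 (0.89) and Rxrg (1.03), and dashed lines a fold change of 1.5.

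In uptake, Rbp4, the carrier of retinol between cells, was at 5.14, 5.06 and 5.21 in mutant RPCs and 4.20, 3.73 and 3.83 in control RPCs on the log2 scale. The mutant was 2.32-fold higher (log2 fold change 1.22 with standard error 0.12, limma adjusted p = 0.00598). With log2(value + 16) its log2 fold change was 0.71, still called. Stra6, the cell surface receptor for that carrier, was at 8.37, 8.44 and 8.43 in mutant and 7.96, 7.79 and 8.10 in control RPCs. These ranges did not overlap, and the log2 fold change of 0.46 (limma adjusted p = 0.0327) stayed below the fold change of 1.5.

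Among 12 dehydrogenases and reductases that convert retinol and retinal into each other, 1 was called. This was Rdh5, a dehydrogenase of the pigment epithelium, with 6.30, 6.36 and 6.38 in mutant RPCs and 5.45, 4.79 and 5.81 in control RPCs. The control arrays were widely spread, and the log2 fold change was 1.00 (standard error 0.23, limma adjusted p = 0.0567). The call of Rdh5 was lost when any mutant array was left out (log2 fold changes of 1.02, 0.99 and 0.98 without replicates 1, 2 and 3), when control replicate 1 was (1.05), and without the moderation of the variance (limma adjusted p = 0.224). Dhrs3, a reductase that turns retinal back into retinol and is induced by retinoic acid, had a log2 fold change of 0.30 (95% confidence interval from limma 0.07 to 0.53, adjusted p = 0.142). Its mutant arrays were nonetheless all above its control arrays. For storage and the visual cycle, 1 of 6 genes was called. Rlbp1, which encodes a retinal-binding protein of the pigment epithelium and Müller glia, was at 8.20, 7.96 and 8.12 in mutant RPCs and 7.13, 6.89 and 7.59 in control RPCs (log2 fold change of 0.89, limma adjusted p = 0.0344). Its call was lost when mutant replicate 1 (0.84) or 3 (0.88) was left out, and without the moderation.

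Of 5 further nuclear receptor genes, Rxrg rose. It was at 5.53, 5.71 and 5.59 in mutant RPCs and 4.70, 4.52 and 4.51 in control RPCs, a log2 fold change of 1.03 (limma adjusted p = 0.00315). The other receptors did not pass: Rxra had a log2 fold change of 0.27 (limma adjusted p = 0.0966), Rarg one of 0.19, Rara one of 0.00 and Rxrb one of -0.04. Rarg has a dimmer probe set as well, with a log2 fold change of 0.55 (limma adjusted p = 0.0153), which was not called. None of 6 carrier and coregulator genes was called. Fabp5, which carries retinoic acid to another nuclear receptor, had the lowest log2 fold change of them, -0.34 (limma adjusted p = 0.0761). The dimmer probe set of Fabp5 had -0.56 (limma adjusted p = 0.0115) and was not called either. Among 8 genes named for or known for a response to retinoic acid, none was called, 4 lay below the array median on every array, and the log2 fold changes ran from -0.17 for Hoxb1 to 0.35 for Zfp703 (limma adjusted p = 0.0399).

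The position of cells along the dorsal to ventral axis bears on Aldh1a1 and Aldh1a3, which are expressed at opposite ends of it. Of 6 genes of the dorsal retina, 1 was called higher, Bmp4 (log2 fold change of 1.57), against 2.28% of all genes. Tbx5, a dorsal transcription factor gene, had a log2 fold change of 0.46 (limma adjusted p = 0.14), and Efnb2 had 0.35 (adjusted p = 0.021). Tbx2 and Tbx3 had -0.41 (limma adjusted p = 0.0205) and -0.39 (adjusted p = 0.0437). At an adjusted p under 0.10, 2 of the dorsal genes were higher and 2 lower. Of 4 measured genes of the ventral retina, 1 was called lower, Bmpr1b (-0.59), against 0.918% of all genes. Vax2, a ventral homeobox gene, had a log2 fold change of -0.52 (limma adjusted p = 0.0118). The parts of a shifted mix of dorsal and ventral cells and of a changed level per cell cannot be told apart in sorted pools.

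Markers of other tissues of the eye, of progenitors and of neurons differed between the same arrays as Cyp26a1, Crabp1, Rarb, Rbp4, Rdh5, Rlbp1 and Rxrg, and their part in these results was not tested. Of 12 pigment epithelium genes, 7 were called higher in mutant RPCs, where 2.28% of all genes were called higher and 0.918% lower. The summed linear intensity of these 12 genes was 10440 to 10502 on the mutant arrays, against 6454 to 7849 on the control arrays. Rpe65, a marker of mature pigment epithelium that is also in the retinoid list, lay below the array median on every array. Of 13 periocular mesenchyme and neural crest genes, 6 were called higher, with sums of 993 to 1334 in mutant and 658 to 699.5 in control RPCs. Twist1 and Alx4 of that list lay below the array median on every array. Of 12 lens and surface ectoderm genes 5 were called higher (sums of 3717 to 4111 in mutant and 1780 to 2886 in control RPCs), of 10 endothelial genes 3 (1182 to 1274 in mutant and 722 to 932 in control RPCs), and of 8 blood genes 1. The blood sums of 11870 to 12683 in the mutant and 8491 to 11404 in control did not overlap. The blood gene called was Hbb-bh1 (log2 fold change 1.00), and the other 7 were not called. Of these, Hba-x had 0.48, Aif1 0.17, Csf1r 0.16, Cd68 0.09, Ptprc 0.05 and Hba-a1 -0.19. Hbb-y, the brightest of the list, had 0.07. Of 9 retinal progenitor genes, 2 were called lower, with sums of 5496 to 5652 in mutant and 8068 to 8538 in control RPCs, and 5 of 9 retinal neuron genes were called lower, with sums of 255 to 307 in mutant and 433 to 674 in control RPCs. All 9 retinal progenitor genes lay above the array median on every array. By their brightest probe sets, the 2 called were Sfrp2 (log2 fold change -0.98) and Fgf15 (-1.43). The sum of the other 7 was 3485 to 3578 in mutant and 3941 to 4056 in control RPCs. Among these 7, log2 fold changes were 0.06 for Hes1, -0.12 for Lhx2, -0.11 for Six6 and -0.19 for Sox2. Falls were larger for Ccnd1 (-0.30, limma adjusted p = 0.0486), Rax (-0.38, adjusted p = 0.0526) and Six3 (-0.40, adjusted p = 0.0303). Of the 9 genes, 8 had a negative log2 fold change and 7 had every mutant array below every control array. Among all probe sets, 15.1% lay wholly below in this way.

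**Figure D4:**
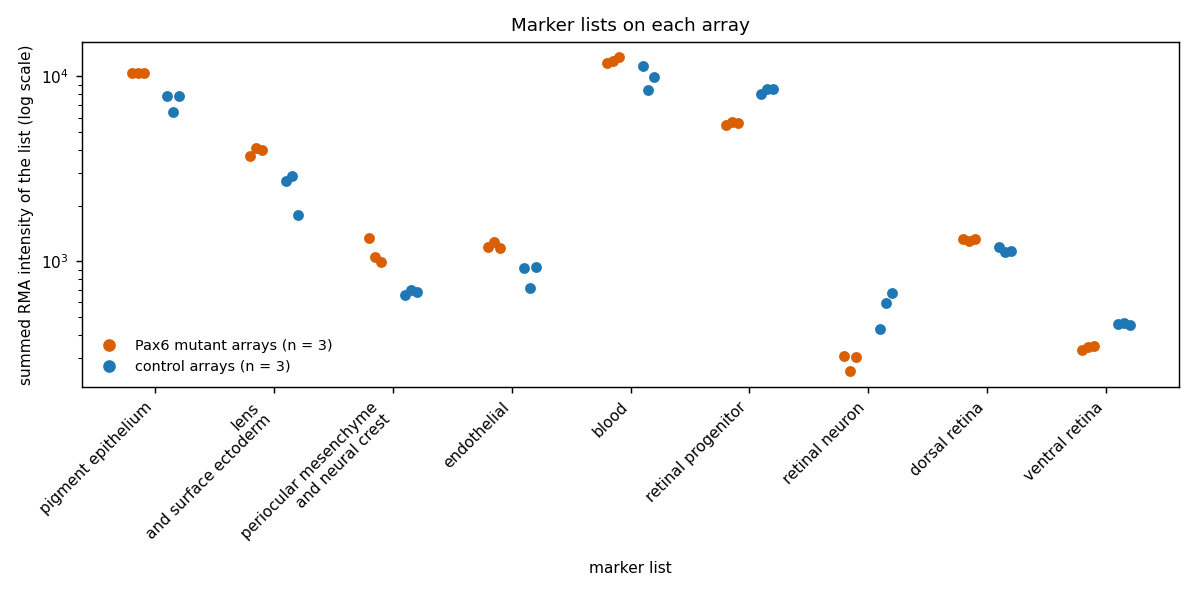
Summed linear RMA intensity (y axis, log scale) of each marker list (x axis) on each array, with Pax6 mutant arrays in orange on the left and control arrays in blue on the right. Pigment epithelium sums are 10440 to 10502 in the mutant and 6454 to 7849 in control, and retinal progenitor sums 5496 to 5652 in the mutant and 8068 to 8538 in control.

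As a check of the labels, the Pax6 probe set 1425960_s_at was at 4.79, 4.88 and 4.45 in mutant RPCs and 6.34, 6.44 and 6.14 in control RPCs. Its log2 fold change was -1.60 (limma adjusted p = 0.00329), and none of the 4 remaining Pax6 probe sets was called, although 2 of them lay lower on every mutant array. Those 2 are brighter than 1425960_s_at: 1419271_at, the brightest, had a log2 fold change of -0.11 (limma adjusted p = 0.306). The other, 1452526_a_at, had one of -0.22 (limma adjusted p = 0.204). By its brightest probe set Pax6 was therefore not called. Array medians were between 12.9 and 13.1 on the linear scale, and every array correlated more closely with each array of its own group (lowest r of 0.995) than with any array of the other (highest r of 0.993).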

How the data were processed

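GFP-positive RPCs of 3 Pax6 mutant and 3 control pools were profiled on 1-colour Affymetrix Mouse 430 2.0 arrays. Each deposited value is an RMA intensity on the linear scale, already background-corrected, normalised between arrays and summarised by probe set. The methods name RACE and Bioconductor for this and the submitters' processing notes name Affymetrix Expression Console, with no versions. Here log2 was taken, 64 control probe sets were left out, and 45037 probe sets were fitted with limma 3.58.1 in R 4.3.3, mutant against control, with no block. The thresholds are those of the methods. The code was tested on simulated data. Gene names came from the platform annotation, brought up to date by gene ID: 34945 probe sets had 1 symbol, 932 several (not named) and 9160 none listed. A gene of a list counted by its brightest probe set over the 6 arrays. All member probe sets were named by rule, and listed genes when called or fixed by name. The members and lists were chosen with earlier results of these data known. The pools are described as biological repeats. The limma p-values set each group difference against the spread between these pools, moderated over all probe sets. Alternatives were the variance estimate, a SAM-type statistic, scaling, dim probe sets, array weights, a replicate block, probe set medians, log2(value + 16), thresholds and leaving out each array. The number of arrays limits the precision.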

Additional observations from a re-analysis of the deposited data

How the results depend on the processing

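Cyp26a1 and Crabp1 were called under every alternative that was run. Without the moderation of the variance, 1 member probe set and 2 other retinoid genes were called higher, and 282 of all probe sets were higher and 178 lower. With no minimum fold change, 5 member probe sets were higher and 2 lower, 8 other retinoid genes were higher and 1 lower, and 2268 of all probe sets were higher and 2049 lower. By the median of each gene's probe sets, 338 genes were higher and 155 lower, where 415 and 167 genes were by the brightest probe set, and with log2(value + 16) 343 probe sets were higher and 174 lower. That median for Aldh1a3 was the value of 1427395_a_at (0.088), the middle of its 3 probe sets on all 6 arrays, and so is no check of the other 2. Crabp2, at -0.06 with all arrays, ranged from -0.15 to 0.023 without 1 array at a time, the positive value without control replicate 2. Without 1 array at a time, 2 member probe sets were higher and 1 lower in each fit, and 2 to 4 other retinoid genes were higher, with 2 when mutant replicate 1 or 3 was left out. In those fits 544 to 787 of all probe sets were higher and 342 to 504 lower. Same-numbered arrays showed no shared deviation: their deviations from their group means correlated at -0.01, -0.00064 and -0.0085. These correlations cannot show whether same-numbered pools were collected or handled together. With a replicate block 709 probe sets were higher and 427 lower, with 2 member probe sets higher and 1 lower. Aldh1a2 was left out with the lowest 40% of probe sets.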

Other observations

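Over the 6 arrays, the genes whose pattern was most like that of Cyp26a1, by Pearson r among 11261 genes above the array median, were the transketolase gene Tkt (r = 0.9996), the nuclear import gene Ipo5 (r = 0.9989), the complement regulator gene Cd59a (r = 0.9988), the growth factor gene Fgf15 (r = 0.9979) and the RNA-binding protein gene Pcbp2 (r = 0.9979). These values are a description of 2 groups of 3 arrays and follow mostly from the gap between the groups. The log2 fold changes of these genes differed in size, with -0.18 for Tkt, -0.38 for Ipo5, -1.45 for Cd59a, -1.43 for Fgf15 and -0.16 for Pcbp2, against -1.88 for Cyp26a1.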
